A study of Mus musculus with 4 samples.

Results

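The replication-dependent histone genes are the genes in the mouse histone clusters named Hist1, Hist2, Hist3 and Hist4. They were taken here by symbol: every gene of the count tables whose name starts with Hist1h, Hist2h, Hist3h or Hist4h and that had at least 20 unique molecular identifiers (UMIs, counts of captured transcript molecules) over the 4 libraries. This gave 63 members of 32285 genes in the tables, of which 16558 genes reached 20 UMIs. Of 67 symbols of that form, 4 were left out: Hist2h2aa2 had 1 UMI, and Hist1h2aa, Hist1h2ba and Hist1h2bq had 0. The least counted members kept were Hist1h1t with 39 UMIs and Hist1h2ao with 58. By histone type the members were 6 genes of linker histone H1, 16 of H2A, 16 of H2B, 12 of H3 and 13 of H4. On the mouse build GRCm38, 51 members lie on chromosome 13 between bases 21715763 and 23764406, 9 on chromosome 3, 2 on chromosome 11 and 1 on chromosome 6. The rule took each gene's symbol and total count. The family itself was chosen with earlier results of these data known.

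The cells came from small-intestinal crypts of mice, the epithelial pits that hold the stem cells of the gut lining. Crypts were released with EDTA and strained, and their cells were profiled with a droplet-based 10x Genomics 3′ kit. The groups were labelled 0D and 2D, with 2 libraries each. The libraries are named by group and number, such as 2D-1, and values for 4 libraries are given with the 0D pair first and the 2D pair second, in order of number. The study design speaks of sleep deprivation, with cells taken beforehand and afterwards. No strain, genotype, sex or age is labelled, the letter D is not explained, and nothing says that each library came from its own animal. A p-value between the groups is therefore set by how much 2 libraries of a group differ, which may be technical.

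Core histones H2A, H2B, H3 and H4 form the protein spool around which DNA is wound, and H1 binds the linker DNA between spools. A dividing cell makes most of its new histones during S phase, when DNA is copied, from genes that occur in many near-identical copies. Their transcripts are unusual: most end not in a poly(A) tail but in a short stem-loop that is bound by the stem-loop binding protein, Slbp, and are destroyed when DNA synthesis ends. Some of these genes, Hist1h2bc and Hist1h1c among them, are also known to give polyadenylated transcripts in cells that no longer divide. The 3′ kit primes on poly(A), so the counts reflect polyadenylated or internally primed histone transcripts and not the whole histone mRNA pool.

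The stem-loop was searched as GGNNC followed directly by TTTTNAG and then NNCC, N being any base, on the sense strand of the GENCODE transcripts of GRCm38. It was found in 43 of the 63 members and in 72 of 21901 protein-coding genes with a transcript, which is 0.329%. The following sites, with their flanks and the pattern in capitals, are shown because the genes differ below in how far the annotated transcript runs past the stem-loop and in how they behave in dividing cells.
Hist1h2ap: aaaaGGCTCTTTTCAGAGCCatc
Hist1h2ab: caaaGGCTCTTTTCAGAGCCacccacatct
Hist1h3c: aaaaGGCTCTTTTAAGAGCCacctaagatg
Hist1h4d: caaaGGCCCTTTTCAGGGCCactaccttct
Hist1h1c: aaaaGGCTCTTTTCAGAGCCaccactccca
Hist3h2a: caaaGGCTCTTTTCAGAGCCacccacaacc
Hist2h3c1: caaaGGCTCTTTTCAGAGCCaccacagctt
The capitals spell the same pattern in genes of every type shown, while the transcripts differ in where they end. The annotated transcript ends 3 bases after the stem-loop in Hist1h2ap, 11 in Hist1h2ab and 74 in Hist1h3c. It runs on for 770 bases in Hist1h4d, 840 in Hist1h1c, 1167 in Hist2h3c1 and 1643 in Hist3h2a. No match was found in the annotated transcripts of the other 20 members, which include Hist1h1b and Hist1h2bc.

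After filtering, the libraries held 7586, 7132, 7025 and 7988 cells, with 93090534 to 113758758 UMIs per library and medians of 9247.5 to 13340.5 UMIs per cell. Between 13 and 16 cell barcodes were shared by each pair of libraries and 0 had identical profiles. Cells were placed in an S gate, a G2/M gate or a non-dividing gate by the summed level of S-phase and mitosis genes, and in epithelial classes by marker genes. No histone gene was used in any gate. Stem markers, which set the stem gate, summed to 4881 to 5474 CPM in stem-gated cells, so this is no independent check. They summed to 67.1 to 99.3 CPM in enterocyte-gated, 217 to 366 CPM in Paneth-gated and 529 to 633 CPM in tuft-gated cells. S-gated cells made up 18.2%, 16.2%, 10.4% and 9.85% of cells and G2/M-gated cells 19.5%, 18.0%, 17.4% and 11.1%. Gates cut a continuous score: 558 of 29731 cells lay within 0.1 standard deviations of the dividing threshold and 2564 within 0.1 of the class threshold. Median UMIs per cell were 11844 to 17714 in the S gate, 14157 to 21865 in the G2/M gate and 7959 to 12125 in the non-dividing gate as a whole, whose Paneth-gated cells had 16125 to 31893.

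Histone transcripts of all 5 types summed to higher levels in dividing than in non-dividing cells. The summed level of the 63 members was 442, 466, 317 and 324 CPM (the counts-per-million scale, relative to all UMIs of the summed cells) in non-dividing cells of the 4 libraries. It was 2527, 3218, 2122 and 1940 CPM in S-gated cells and 3780, 4121, 2270 and 2464 CPM in G2/M-gated cells, so the dividing gates lay above the non-dividing gate in every library. The H2B genes had the smallest gap, at 186, 186, 120 and 132 CPM in non-dividing and 267, 334, 224 and 199 CPM in S-gated cells. Each captured 3′ end counts once, so these levels were not divided by gene length. Cells with at least 2000 UMIs were also thinned to 2000 UMIs and gated anew on the thinned counts, so the gates did not hold the same cells. After thinning, 71.0% to 78.9% of S-gated, 79.2% to 88.3% of G2/M-gated and 50.9% to 59.9% of non-dividing cells had at least 1 member UMI. Unthinned, the shares were 94.8% to 99.6%, 98.2% to 99.5% and 87.1% to 96.2%. Free RNA in the droplets gives UMIs in cells that do not express a gene, and its part was not tested. In non-dividing Paneth-gated cells, which had the lowest summed member CPM of the classes, the thinned share was 22.1% to 31.3%. Unthinned, it was 76.7% to 93.2% in these cells, so the thinned share cannot be read as the level given by free RNA.

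**Figure D1:**
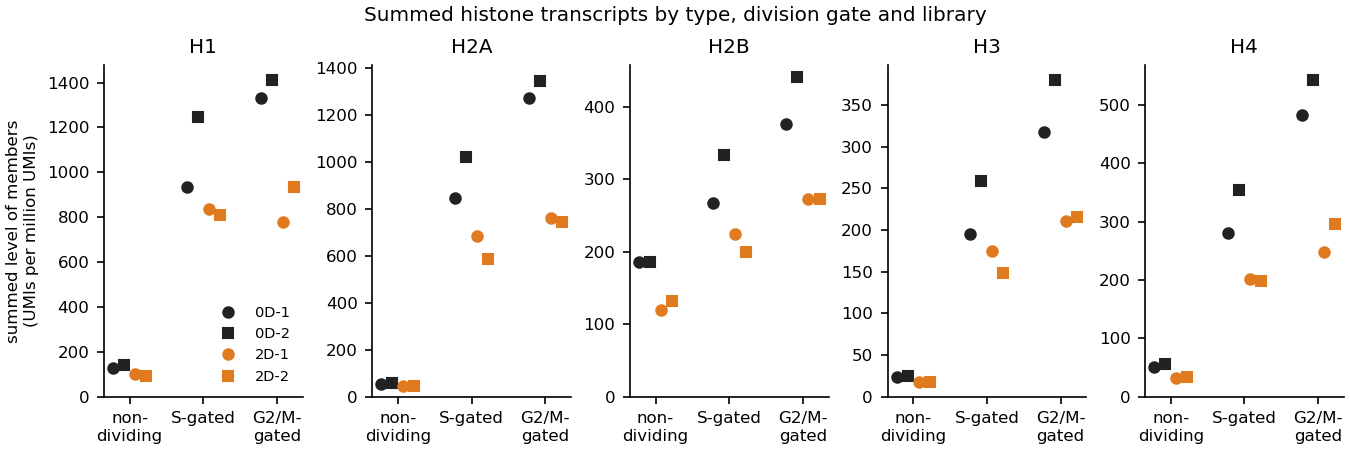
Summed level of the members of each histone type (vertical axis, CPM, starting at 0) in non-dividing, S-gated and G2/M-gated cells, with 1 point per library. Every type is lowest in the non-dividing gate, and the H2B panel shows the smallest relative gap, Hist1h2bc holding 34.2% to 37.9% of all member UMIs of non-dividing cells.

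Of 61 members with enough counts to be tested, 55 were higher in S-gated than in non-dividing cells and 5 were lower by edgeR's quasi-likelihood test with Benjamini-Hochberg adjustment over all genes and library as a block (n = 4 libraries). Of all 13946 genes tested, 38% were higher and 40.1% lower. The median member differed by 2.99 on the log2 scale, against -0.02 over all genes. By type, 5 of 5 tested H1 genes were higher (median 3.22), 13 of 15 H2A genes (median 3.73), 14 of 16 H2B genes (median 3.42), 10 of 12 H3 genes (median 2.65) and 13 of 13 H4 genes (median 2.30). The members too low to be tested were Hist1h1t, the testis type of H1, and Hist1h2ao.

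Among the linker histones, Hist1h1b (chromosome 13, bases 21779883 to 21780625) held the most UMIs of any member in the filtered cells. Its level was 8.28, 8.73, 4.90 and 5.43 CPM in non-dividing cells and 440, 606, 431 and 410 CPM in S-gated cells. The 4 S-gated values lay far above the 4 non-dividing ones, a log2 difference of 5.73 ± 0.12 (SE, adjusted p = 2.98e-14). Hist1h1a differed by 4.11 ± 0.09 and Hist1h1d by 3.22 ± 0.10. Hist1h1e, the second linker gene by UMIs, had 77.7, 88.2, 59.6 and 52.6 CPM in non-dividing cells and 333, 422, 257 and 256 CPM in S-gated cells. It was thus well expressed outside division too, and its difference was 1.77 ± 0.07 (SE). Hist1h1c rose least, from 33.0, 36.6, 28.7 and 29.4 CPM to 58.0, 80.4, 53.1 and 50.7 CPM, by 0.49 ± 0.09, and with cells thinned to 2000 UMIs its rise was not called (0.25, adjusted p = 0.0722). The linker genes therefore spanned from near-silent to well expressed in non-dividing cells while all 5 tested were higher in S-gated cells.

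In the H2A family the most counted gene was Hist1h2ap, at 8.16, 9.03, 5.01 and 3.98 CPM in non-dividing cells and 392, 432, 246 and 204 CPM in S-gated cells (log2 difference 5.20 ± 0.08, SE). Hist1h2ae went from 8.90 to 11.0 CPM in non-dividing cells to 219 to 300 CPM in S-gated cells (4.28 ± 0.09), and Hist2h2ac from 5.51 to 9.48 CPM to 57.8 to 102 CPM (2.89 ± 0.11). The largest difference of any member with UMIs in every non-dividing library was that of Hist1h2an, 5.93 ± 0.14 (SE). Its level was 0.0934 to 0.266 CPM in non-dividing and 12.6 to 15.9 CPM in S-gated cells. A pair of H2A genes stood apart from this pattern. Hist1h2ac had 12.6, 11.3, 15.1 and 12.4 CPM in non-dividing cells and 23.0, 24.3, 15.5 and 20.9 CPM in S-gated cells, a difference of 0.26 ± 0.17 that was not called (adjusted p = 0.169). Hist3h2a was called lower in S-gated cells (-0.46 ± 0.14, adjusted p = 0.00811), although its CPM overlapped between the gates, at 6.87 to 9.38 and 5.91 to 8.67. Without composition scaling this difference was -0.06 and not called, since that scaling moves the median of all genes by 0.41 on the log2 scale in this comparison.

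Among H2B genes, Hist1h2bc (chromosome 13, bases 23684199 to 23692908) was the leading histone transcript of non-dividing cells and ran against its family. It had 168, 167, 108 and 120 CPM in non-dividing cells and 89.5, 94.0, 78.2 and 68.4 CPM in S-gated cells, so every S-gated value was below every non-dividing one (log2 difference -1.17 ± 0.10, SE, adjusted p = 6.01e-08). In G2/M-gated cells it stayed near that level, at 91.2, 93.4, 95.8 and 98 CPM. Hist1h2bc alone gave 34.2% to 37.9% of member UMIs in non-dividing cells and 2.92% to 3.68% in S-gated cells. Together with Hist1h1e and Hist1h1c it gave 62.0% to 62.9% in non-dividing and 18.3% to 19.3% in S-gated cells. The reverse held for Hist1h1b, Hist1h2ap and Hist1h2ae, which gave 5.65% to 6.29% and 41.6% to 44.6%. The other H2B genes leading by UMIs were Hist1h2bj, which went from 1.42 to 2.67 CPM to 23.7 to 42.1 CPM (3.55 ± 0.09), and Hist1h2be, from 2.94 to 4.86 CPM to 19.8 to 34.7 CPM (2.33 ± 0.09). Hist2h2be rose by only 0.40 ± 0.16 (adjusted p = 0.0375). Hist3h2ba was lower in S-gated cells, at 1.31 to 1.90 CPM in non-dividing and 0.985 to 1.10 CPM in S-gated cells (-1.05 ± 0.17).

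H3 genes split in the same way. Hist1h3c went from 1.86, 1.99, 1.34 and 1.07 CPM in non-dividing cells to 51.2, 72.1, 55.8 and 45.2 CPM in S-gated cells (4.76 ± 0.08, SE), and Hist1h3b differed by 5.01 ± 0.14. Hist1h3e, the H3 gene with the most UMIs, differed by 2.40 ± 0.11 and Hist1h3f by 2.84 ± 0.09. By contrast Hist2h3c1 and Hist2h3c2, which lie together on chromosome 3, were lower in S-gated cells. Hist2h3c1 had 1.79, 2.26, 2.22 and 2.16 CPM in non-dividing and 0.930, 1.10, 0.676 and 0.806 CPM in S-gated cells (-1.62 ± 0.18), the lowest ratio of any member tested. Hist2h3c2 had 0.725 to 1.15 CPM and 0.401 to 0.507 CPM (-1.38 ± 0.21). Every 90-base stretch of the Hist2h3c1 transcript also occurs in the gene model Gm20634, so reads cannot be divided between those 2 models by sequence. Hist2h3c2 had 62.0% of its 90-base stretches in another gene's transcript (most with Gm20634), so its counts share this limit in part.

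All 13 H4 genes were higher in S-gated cells, with the smallest differences for Hist4h4 (0.76 ± 0.17, SE) and Hist2h4 (1.15 ± 0.16). Hist1h4d, which held the most H4 UMIs, went from 23.7, 28.8, 12.4 and 15.1 CPM to 151, 201, 88.8 and 98.2 CPM (2.34 ± 0.07). Hist1h4h differed by 2.30 ± 0.08 and Hist1h4i by 1.71 ± 0.08. The largest H4 difference was that of Hist1h4a, 3.59 ± 0.14, and no H4 gene reached the differences seen for Hist1h1b, Hist1h2ap or Hist1h3b.

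Many members were higher still in the G2/M gate than in the S gate. A dividing cell went to the gate with the higher score. S-phase gate genes summed to 645 to 772 CPM in G2/M-gated cells, against 88.1 to 106 CPM in non-dividing cells. Whether the G2/M gate holds cells still copying DNA was not tested. By the same edgeR fit, 34 of 61 members were higher in G2/M-gated cells (21.8% of all genes) and 4 were lower (21.1% of all genes), with a median of 0.37 on the log2 scale against -0.01 over all genes. By type, 11 of 15 H2A, 11 of 16 H2B, 7 of 12 H3, 2 of 5 H1 and 3 of 13 H4 genes were higher. Hist1h2ab, an H2A gene, rose from 49.6, 77.3, 24.4 and 28.1 CPM to 104, 124, 37.7 and 48.7 CPM, higher in each of the 4 libraries (0.78 ± 0.06, SE, adjusted p = 5.48e-07). Hist1h3f rose by 0.84 ± 0.08, Hist1h3c by 0.68 ± 0.06 and Hist1h4d by 0.72 ± 0.07. Hist3h2a, which had not risen in the S gate, was higher by 1.08 ± 0.14 in the G2/M gate. Hist1h1b did not differ past the threshold (0.03 ± 0.09).

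The 4 members lower in G2/M-gated cells were Hist1h4a (-0.61 ± 0.12, SE), Hist1h1a (-0.50 ± 0.07), Hist1h3a (-0.41 ± 0.10) and Hist1h2an (-0.22 ± 0.08). Hist1h1a had 43.5, 55.9, 37.5 and 37.4 CPM in the S gate and 35.8, 40.5, 21.5 and 28.3 CPM in the G2/M gate, lower in each library. In cells thinned to 2000 UMIs and gated anew the 4 calls were lost: Hist1h3a and Hist1h2an changed sign, to 0.10 and 0.30, and Hist1h4a and Hist1h1a had -0.30 and -0.19. The call of Hist1h2an (adjusted p = 0.0469) was also lost without a filter on low counts (0.0852), with DESeq2 (0.144), without each library in turn (0.0564 to 0.199), with at most 10% mitochondrial UMIs (0.0688) and without composition scaling (0.0900).

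The genes that make and carry histones followed another course across the 2 gates. Slbp, whose product holds the stem-loop, had 27.6, 28.6, 29.1 and 29.1 CPM in non-dividing, 133, 142, 136 and 150 CPM in S-gated and 51.9, 48.4, 44.1 and 49.0 CPM in G2/M-gated cells. It rose by 1.88 ± 0.06 (SE) in the S gate and fell by 1.55 from S to G2/M, while the member sum did not fall. Genes that move with the S-phase gate list differ between these gates in part by the way the gates were drawn. Of 15 genes for histone transcription and 3′ processing, 15 were higher in S-gated than in non-dividing cells (38% of all genes). They include Casp8ap2 (1.86 ± 0.05), needed for histone gene expression, Eri1 (1.93 ± 0.08), a nuclease that trims the stem-loop end, and Npat (0.97 ± 0.06), the coactivator of histone genes. From S to G2/M, 9 of these 15 were lower (21.1% of all genes) and 1 was higher (21.8%). Of 19 chaperone and chromatin assembly genes, 18 were higher in S-gated cells (38% of all genes) and 17 then lower in G2/M-gated cells (21.1%). Asf1b, a carrier of H3 and H4, differed by 5.70 ± 0.10 between S-gated and non-dividing cells, the assembly factor subunit Chaf1a by 4.71 ± 0.08 and the histone chaperone Nasp by 2.84 ± 0.07.

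Replication-independent histone genes, most of which are made throughout the cell cycle with ordinary poly(A) tails, had a smaller median difference. Of 11 such genes, 6 were higher (38% of all genes) and 2 lower (40.1%) in S-gated than in non-dividing cells. Their median was 0.34 on the log2 scale against 2.99 for the members. Cenpa, the centromeric H3, rose by 2.22 ± 0.09 (SE), H2afx by 1.68 ± 0.07 and H2afz by 1.56 ± 0.07. H2afj (-0.16 ± 0.05) and H1fx (-0.41 ± 0.17) were called lower in this scaled fit, although the CPM of H2afj were 262 to 349 in non-dividing and 328 to 420 in S-gated cells. Cenpa then rose by a further 2.21 ± 0.09 from S to G2/M.

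Members whose annotated transcript runs far past the stem-loop had a smaller median difference between S-gated and non-dividing cells. The split at 100 bases was chosen after the values were seen and is given as a description only. In the 22 members whose transcript extends more than 100 bases past the stem-loop, the median difference was 1.71 on the log2 scale (range -1.62 to 4.28, 21 tested) and the median level in non-dividing cells was 3.10 CPM. In the 21 members ending within 100 bases the median was 3.40 (range 1.57 to 5.20, 20 tested), at 0.765 CPM in non-dividing cells. The 20 members without a match had a median of 3.78 and ranged from -1.17 for Hist1h2bc to 5.93 for Hist1h2an. Many of the models without a match stop at the end of the coding sequence, so in those the missing stem-loop describes the annotation. Others are long, such as those of Hist2h2be (2620 bases, difference 0.40), Hist1h2br (1256 bases, 3.10) and Hist1h2bc (1156 bases, -1.17). Hist1h2ap and Hist1h2ab, which end right after the stem-loop printed above, differed by 5.20 and 4.47. Of the 9 members that run on for more than 1000 bases, Hist3h2a and Hist2h3c1 were among the 5 that were lower. The other 7 had differences above 0, from 0.26 for Hist1h2ac to 3.22 for Hist1h1d and 3.63 for Hist1h2bh.

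**Figure D2:**
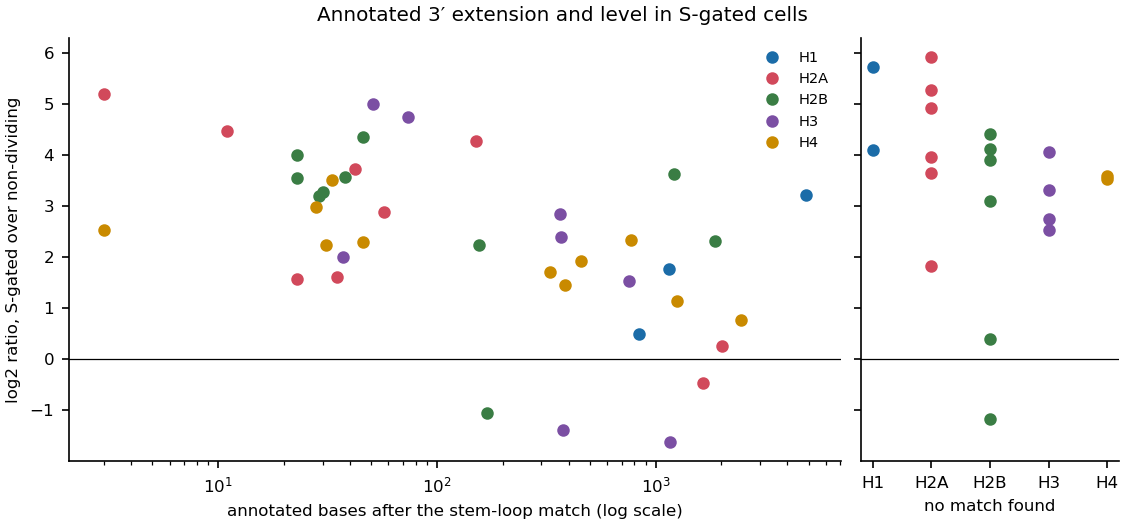
Annotated bases between the stem-loop match and the transcript end (left panel, horizontal axis, log scale) against the log2 ratio of S-gated over non-dividing cells (vertical axis), with 1 point per member coloured by type. The right panel shows the members without a match by type; members past 100 bases range from -1.62 to 4.28 and those within 100 bases from 1.57 to 5.20.

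Promoters were read from RefSeq on GRCm38.p6 as the 250 bases before and 50 after each start. They matched 57 of the 63 members with 58 promoters. These 3 are shown with their motif matches in capitals, as an H2A gene with all 3 motifs, the leading H1 gene and an H4 gene with none of them.
Hist1h2ab, chr13:23750838-23751137, plus strand: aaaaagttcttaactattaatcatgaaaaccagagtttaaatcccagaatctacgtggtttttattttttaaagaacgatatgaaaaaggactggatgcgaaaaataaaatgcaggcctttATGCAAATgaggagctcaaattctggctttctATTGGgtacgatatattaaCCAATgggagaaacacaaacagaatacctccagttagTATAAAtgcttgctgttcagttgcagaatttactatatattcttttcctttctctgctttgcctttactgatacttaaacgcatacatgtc
Hist1h1b, chr13:21780576-21780875, minus strand: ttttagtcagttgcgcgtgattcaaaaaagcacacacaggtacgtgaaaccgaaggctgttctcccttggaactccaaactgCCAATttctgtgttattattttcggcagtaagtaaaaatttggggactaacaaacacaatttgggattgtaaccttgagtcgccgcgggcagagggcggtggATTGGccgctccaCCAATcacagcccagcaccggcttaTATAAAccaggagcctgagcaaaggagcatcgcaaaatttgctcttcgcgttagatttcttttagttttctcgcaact
Hist1h4h, chr13:23530794-23531093, plus strand: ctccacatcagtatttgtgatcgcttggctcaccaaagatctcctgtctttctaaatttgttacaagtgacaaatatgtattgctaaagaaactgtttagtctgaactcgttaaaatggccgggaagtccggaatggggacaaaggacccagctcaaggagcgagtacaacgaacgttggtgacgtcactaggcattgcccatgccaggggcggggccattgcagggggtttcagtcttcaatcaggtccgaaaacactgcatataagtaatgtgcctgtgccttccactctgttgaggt
The motifs searched on both strands were the CCAAT box (CCAAT), the TATA box (TATAAA) and the octamer (ATTTGCAT). CCAAT was in 84.5% of member promoters and 37.4% of all 32851 promoters, TATAAA in 56.9% and 13.6%, and the octamer in 20.7% and 1.74%. By type, CCAAT was in 100% of H1, H2A, H2B and H3 promoters and 25% of H4 promoters. The octamer was in 40% of H2A and 40% of H2B promoters and in 0 of those of H1, H3 and H4. All 3 genes shown were higher in S-gated than in non-dividing cells, and a match or its lack says nothing of which factor binds there.

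Sequence shared between copies limits which gene a UMI can be given to. Of the 63 members, 25 had more than 50% of their 90-base stretches in another gene's transcript and 5 had none. Hist1h2ap shared 92.4% (most with Hist1h2ao), Hist1h2ab 53.6%, Hist1h2ae 31.9%, Hist1h1e 26.2%, Hist1h2bc 26.1% and Hist1h4d 0.858%, and Hist1h1b shared none. Values of Hist1h2ap and Hist1h2ab can therefore hold counts of their copies or miss counts that were left unassigned, while those of Hist1h1b and Hist1h4d are nearly free of this.

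Outside division, the share of UMIs held by histone transcripts differed between the epithelial classes. The classes were stem (Lgr5, Olfm4), enterocyte (absorptive), goblet (mucus-making), Paneth (antimicrobial), enteroendocrine (hormone-making) and tuft (chemosensory). In non-dividing enteroendocrine-gated cells the summed member level was 992, 1109, 874 and 865 CPM in the 4 libraries, and in tuft-gated cells 1032, 1150, 820 and 853 CPM. In enterocyte-gated cells it was 496, 525, 352 and 419 CPM, in goblet-gated cells 459, 446, 392 and 392 CPM and in Paneth-gated cells 123, 146, 103 and 98.7 CPM. Within every library enteroendocrine and tuft lay highest and Paneth lowest. The median log2 difference of all genes from the other classes, without composition scaling, took a similar order. It was 0.91 for enteroendocrine, 0.68 for tuft, 0.38 for stem, 0.08 for enterocyte, -0.07 for goblet and -2.23 for Paneth. Per unthinned cell, enterocyte-gated cells held the most member UMIs, with means of 8.09, 9.46, 7.13 and 5.74. Means were 5.59, 6.62, 5.65 and 4.12 in enteroendocrine-gated and 4.36, 5.73, 2.89 and 3.24 in tuft-gated cells. Paneth-gated cells, the lowest in CPM, had means of 4.1671, 4.5435, 3.0638 and 2.1036, above the tuft mean in 2D-1 and below it in the other libraries. Summed S-phase gate genes were highest in stem-gated cells, at 265 to 283 CPM. Over the other classes they too were highest in enteroendocrine-gated and tuft-gated and lowest in Paneth-gated cells: 137 to 156 CPM in enteroendocrine-gated, 135 to 163 CPM in tuft-gated, 115 to 131 CPM in enterocyte-gated, 89.96 to 96.8 CPM in goblet-gated and 38.5 to 44.8 CPM in Paneth-gated cells. The G2 and mitosis gate genes had 420, 308, 275 and 187 CPM in stem-gated cells and were again lowest in Paneth-gated cells, at 45.8 to 60.02 CPM. Over the other classes their order differed from that of the S-phase genes. They had 196 to 239 CPM in enterocyte-gated, 136 to 195 CPM in tuft-gated, 99.7 to 135 CPM in goblet-gated and 89.5 to 149 CPM in enteroendocrine-gated cells. The part of either list in the member levels was not tested. The non-dividing stem-gated cells were few (89, 34, 27 and 49) and had 716, 547, 401 and 449 CPM of members. With cells thinned to 2000 UMIs, 80.9% to 83.9% of non-dividing enteroendocrine-gated and 75.5% to 84.5% of tuft-gated cells had a member UMI.

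Each class was tested against the mean of the other classes with edgeR, library as a block, over 41 members with enough counts. Differences in these fits are relative to a composition scaling, which is large where a few genes fill a cell type. Paneth markers alone took 537599 to 585386 CPM in Paneth-gated cells. Without the scaling the median of all genes moved by -2.28 for Paneth, 0.88 for enteroendocrine, 0.72 for tuft, 0.52 for stem and 0.21 for enterocyte-gated cells on the log2 scale. Levels in CPM are therefore given beside each difference, and they are themselves lowered where a few genes fill a cell type. For the classes below, counts from alternative runs come without the share of all genes called in that run. They do not set the members apart from other genes there.

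In non-dividing enteroendocrine-gated cells 10 of 41 members were higher (37.7% of all genes) and 7 lower (32%). Without composition scaling 27 were higher and 0 lower, in a run where the median of all genes was 0.91. The differences were led by members that were lower in the S gate. Hist3h2ba, an H2B gene on chromosome 11 (bases 58948920 to 58949533), had 14.7, 15.0, 10.4 and 16.3 CPM here, and 0.214 to 0.816 CPM in enterocyte-gated and 0.746 to 1.80 CPM in goblet-gated cells (log2 difference 2.88 ± 0.24, SE, adjusted p = 6.15e-13). Enteroendocrine-gated cells were not the highest class for Hist3h2ba in every library. Hist2h3c1 had 10.3, 11.2, 9.36 and 10.3 CPM (2.98 ± 0.35) and Hist2h3c2 had 3.64 to 7.26 CPM (2.54 ± 0.36). Hist3h2a, the neighbour of Hist3h2ba, had 35.9, 38.6, 34.1 and 49.0 CPM against 5.74 to 8.51 CPM in enterocyte-gated cells (1.41 ± 0.13). Hist1h1c (1.12 ± 0.10, 79.2 to 133 CPM), Hist1h1e (0.76 ± 0.08, 171 to 294 CPM) and Hist1h2bc (0.46 ± 0.10, 292 to 311 CPM) were higher as well. So were Hist2h4, Hist1h3a and Hist4h4, the last by 0.75 ± 0.21. Of the 7 lower members, Hist2h2ac had the smallest p (-0.97 ± 0.17), at 5.20 to 10.5 CPM, which overlaps the 3.77 to 9.35 CPM of enterocyte-gated cells.

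In non-dividing tuft-gated cells 25 of 41 members were higher (23% of all genes) and 0 lower (24.6%), with a median of 0.90. These cells were the shallowest, with medians of 2253 to 3670.5 UMIs per cell against at least 4466 in the other non-dividing classes, and mitochondrial medians of 11.3% to 13.9% against at most 7.65%. The part of either was not tested. Hist1h1d had the smallest p, with 47.0, 54.2, 28.0 and 40.5 CPM against 2.54 to 4.97 CPM in enterocyte-gated and 11.3 to 16.1 CPM in enteroendocrine-gated cells (2.28 ± 0.18, SE, adjusted p = 1.83e-13). Hist1h1a had 18.8, 18.6, 10.2 and 15.5 CPM (2.36 ± 0.31) and Hist1h3e had 49.7, 46.2, 31.8 and 25.8 CPM (1.71 ± 0.17), both above every value of the other 5 classes. Hist4h4 was higher by 1.63 ± 0.28, at 11.0 to 16.6 CPM. Only 8 members were called with cells of at most 10% mitochondrial UMIs and 9 in thinned cells, all higher. Immune markers summed to 20.8 to 32.4 CPM in tuft-gated cells of all division states and to at most 4.60 CPM in the other gated classes and in ungated epithelium, and their part in this result was not tested.

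Enterocyte-gated non-dividing cells showed the reverse: 24 of 41 members were lower (36.5% of all genes) and 3 higher (33.5%). Hist1h1c had 19.9, 19.6, 12.3 and 16.1 CPM (-1.52 ± 0.12, SE), Hist1h1e 35.5 to 79.8 CPM (-1.03 ± 0.09) and Hist1h4d 9.41 to 21.8 CPM (-1.15 ± 0.11). The 3 higher members were Hist1h2bc with 259, 264, 196 and 244 CPM (0.70 ± 0.09), Hist1h4i with 11.9 to 14.8 CPM (0.79 ± 0.13) and Hist1h2ag with 1.28 to 2.37 CPM (1.43 ± 0.32). Goblet-gated cells had 3 members higher (32.7% of all genes) and 16 lower (28.3%). The 3 were Hist1h2ac with 19.4, 14.5, 31.5 and 19.7 CPM (0.70 ± 0.10), Hist1h1c with 43.4 to 48.3 CPM (0.48 ± 0.10) and Hist2h3c1 with 2.30 to 3.10 CPM (1.57 ± 0.50). Without 0D-1 edgeR called 9 members in goblet-gated cells.

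For Paneth-gated non-dividing cells the direction rested on the scaling. With composition scaling 12 members were higher (29.4% of all genes) and 6 lower (22.8%), and without it 0 were higher and 37 lower. The median of all genes in the run without it was -2.23. Hist1h3e changed sign, from 1.42 to -0.87. Hist1h2bc was lower either way, at 19.4, 24.3, 23.6 and 18.9 CPM against at least 105 CPM in every other class (-0.95 ± 0.11, SE). Among stem-gated non-dividing cells 1 member was higher (15% of all genes) and 5 lower (18.1%), Hist1h4i being the higher one (0.87 ± 0.32), and without 0D-1 or without 0D-2 a single member was called, a lower one.

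**Figure D3:**
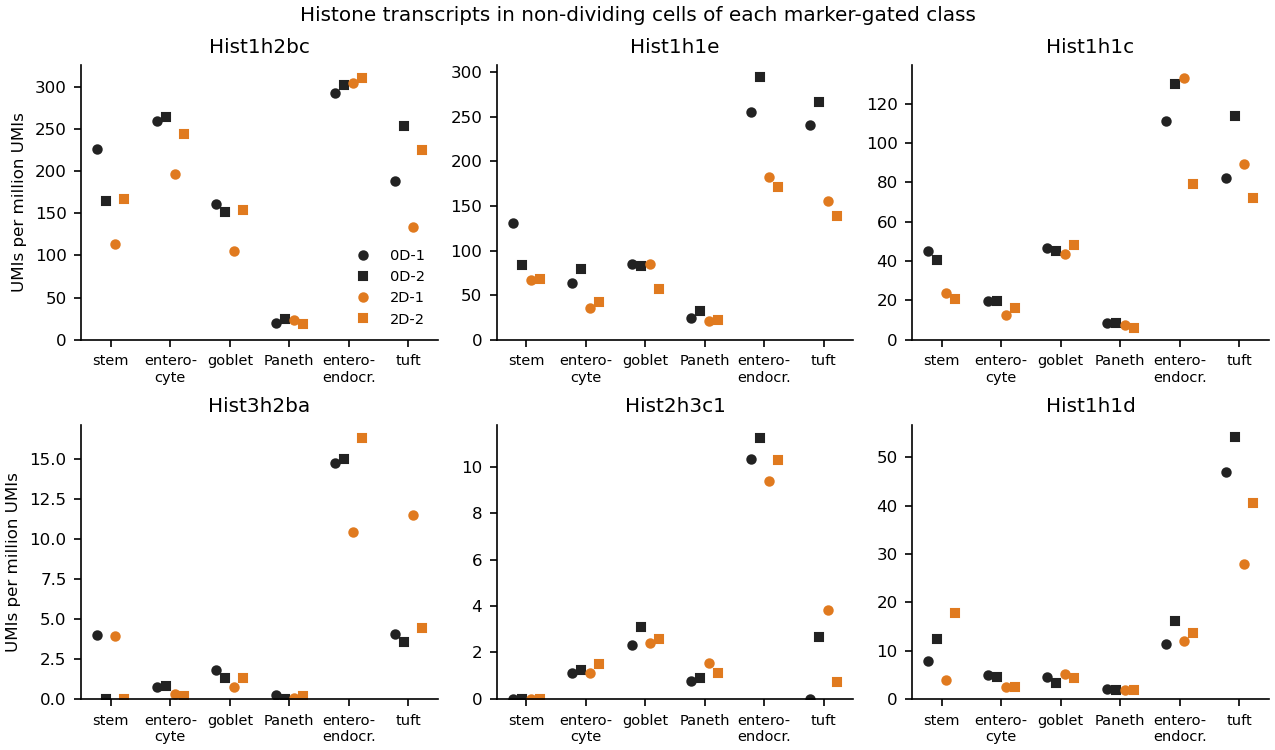
Level of single members (vertical axes, CPM, starting at 0) in non-dividing cells of the 6 marker-gated classes, with 1 point per library. Enteroendocrine-gated cells stand highest for Hist2h3c1, and for Hist3h2ba in 3 of the 4 libraries, tuft-gated cells for Hist1h1d, and Paneth-gated cells lowest for Hist1h2bc.

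Between the 2 groups of libraries, most members had lower levels in 2D than in 0D, and few single genes passed the test. Over all cells 57 of 63 members had a log2 difference below 0, with a median of -0.75 against 0.01 over all genes. Both 2D libraries lay below both 0D libraries for 58 members (38.2% of all genes). The summed level was 1728, 1811, 1062 and 849 CPM in the 4 libraries. By edgeR's quasi-likelihood test 0 members were called (0% of all genes), 46 had an unadjusted p under 0.05 and were lower (9.1% of all genes), and DESeq2 called 36. With 1 library left out, so that a single library stood for its group, the median member differed by -0.97 to -0.59. Here and below, counts called by DESeq2 or with a library left out come without the share of all genes called in that run. They do not show that the members stand apart from other genes there. A sum over all cells mixes the populations above, and the smaller shares of S-gated and G2/M-gated cells in 2D cannot be told apart from less histone RNA per cell in it. The classes shifted too: Paneth-gated cells were 5.63%, 6.31%, 13.1% and 15.9% of cells and stem-gated cells 16.3%, 12.7%, 8.24% and 6.90%.

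Hist1h2ab had 37.8, 43.9, 13.4 and 11.6 CPM over all cells (-1.60 ± 0.10, SE, adjusted p = 0.120), Hist1h4h 37.8, 38.7, 16.9 and 14.4 CPM (-1.18 ± 0.07) and Hist1h4d 117, 130, 51.9 and 47.8 CPM (-1.20 ± 0.09). In each the 2D libraries held less than 0.5 times the level of either 0D library. Hist1h1b had 248, 259, 146 and 119 CPM (-0.83 ± 0.09). Hist1h2bc had 133, 139, 103 and 112 CPM (-0.22 ± 0.12), a smaller gap. The 6 members above 0 were Hist1h1t, Hist1h3h, Hist2h3c2, Hist2h3c1, Hist4h4 and Hist3h2a, at 0.03 to 0.50.

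Within the S gate, where the share of dividing cells is held by the gate, 55 of 59 tested members were below 0 (median -0.44, with all genes centred on 0.00). Both 2D libraries lay below both 0D libraries for 45 of them (22% of all genes). The summed member level was 2527, 3218, 2122 and 1940 CPM. The S-phase gate genes, whose level the gate itself largely sets, summed to 2016, 2221, 1991 and 2062 CPM and are no independent reference. Over all cells they summed to 685, 653, 518 and 423 CPM. By edgeR 0 members were called (0.024% of all genes), 32 had an unadjusted p under 0.05 (5.72% of all genes), and DESeq2 called 7. Without 2D-1 edgeR called 14 and without 2D-2 12. Hist1h2ap had 392, 432, 246 and 204 CPM (-0.88 ± 0.10, SE, adjusted p = 0.197) and Hist1h2ab 49.6, 77.3, 24.4 and 28.1 CPM (-1.27 ± 0.21, adjusted p = 0.240). Hist1h2ae had 244, 300, 269 and 219 CPM, with overlapping groups (-0.16 ± 0.13). By type the medians were -0.41 for H1, -0.39 for H2A, -0.55 for H2B, -0.47 for H3 and -0.59 for H4. Medians in this gate were -0.04 for the chaperone genes, 0.06 for the processing genes and -0.03 for the replication-independent histone genes. Nearly all chaperone and processing genes were higher in S-gated than in non-dividing cells, so their medians are no independent reference either. Median UMIs per S-gated cell were 13556, 15089, 17714 and 11844, so the groups overlapped in depth within this gate.

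In G2/M-gated cells 58 of 61 members were below 0 (median -0.64, with all genes centred on 0), and both 2D libraries lay below both 0D libraries for 50 (23.6% of all genes). A single member was called, Hist1h2ap, where 0.00779% of all genes were called lower. It had 563, 565, 271 and 259 CPM, 2D being close to 0.5 times 0D (-1.08 ± 0.07, SE, adjusted p = 0.0329). The call was lost without 0D-1 (adjusted p = 0.424) and without 0D-2 (0.599), with differences of -1.07 and -1.08. An unadjusted p under 0.05 was found for 47 members (5.34% of all genes), and DESeq2 called 25. Without 2D-1 edgeR called 37 and without 2D-2 35. Hist1h3b had 23.2, 24.8, 11.5 and 11.7 CPM (-1.04 ± 0.10) and Hist1h4h 90.1, 100, 41.1 and 49.7 CPM (-1.06 ± 0.12). Hist1h2bc again differed from the rest, at 91.2, 93.4, 95.8 and 98 CPM (0.08 ± 0.07). Hist1h4i was flat as well, at 32.3, 32.5, 32.8 and 31.0 CPM (-0.01 ± 0.07).

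In non-dividing cells 43 of 52 members were below 0, with a median of -0.46 (0.01 over all genes). Paneth-gated cells, which have the lowest member level in CPM, were 8.99%, 9.88%, 17.4% and 19.4% of these cells and held 23.5%, 22.0%, 38.9% and 38.1% of their UMIs. The summed member level was 442, 466, 317 and 324 CPM with them and 540, 556, 453 and 463 CPM without them, a comparison chosen after seeing the data. Depth moved with the groups here, with median UMIs per non-dividing cell of 10741, 12125, 7959 and 8371, and its part was not tested. Both 2D libraries lay below both 0D libraries for 39, but so did 36.7% of all genes. By edgeR 0 were called (0% of all genes), 20 were lower at an unadjusted p under 0.05 (10.1% of all genes), and DESeq2 called 5. Without 2D-1 edgeR called 13 and without 2D-2 20. Hist1h2bc, the main transcript there, had 168, 167, 108 and 120 CPM (-0.45 ± 0.13, SE, adjusted p = 0.174). Hist1h1e had 77.7, 88.2, 59.6 and 52.6 CPM (-0.47 ± 0.09, adjusted p = 0.140). Hist1h2ac had 12.6, 11.3, 15.1 and 12.4 CPM, with overlapping groups. The difference between the 2D effect in S-gated and in non-dividing cells was tested directly, and 0 of 62 members were called (0.386% of all genes). The median of that difference was -0.08, 4 members had an unadjusted p under 0.05 and a lower value (3.9% of all genes), and DESeq2 called 0. Leaving out 1 library gave 1 without 0D-1, 3 without 2D-1 and 2 without 2D-2.

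**Figure D4:**
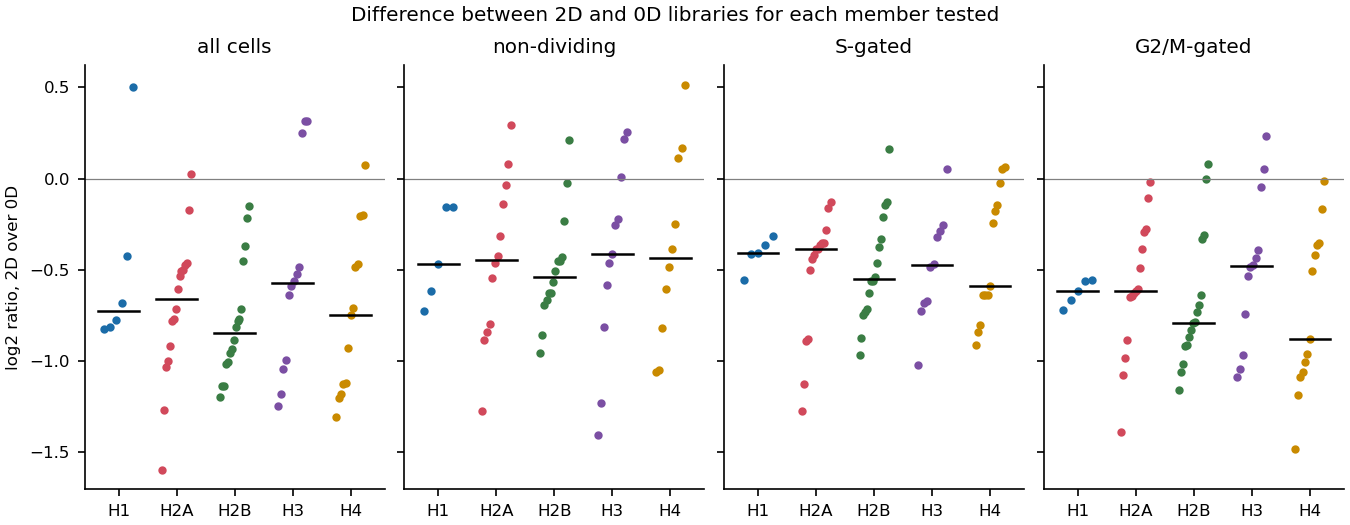
Log2 ratio of 2D over 0D (vertical axis) for each member tested, by histone type, in all cells and in the division gates, with 1 point per member, a thick bar at each type's median and a thin line at 0. Most points lie below 0 in each panel, with medians of -0.75 in all cells, -0.44 in S-gated, -0.64 in G2/M-gated and -0.46 in non-dividing cells.

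By class, the stem-gated cells had 56 of 58 members below 0 (median -0.47), 0 called (0% of all genes), 29 lower at an unadjusted p under 0.05 (5.48% of all genes) and 9 called by DESeq2. Both 2D libraries lay below both 0D libraries for 34 of them (17.9% of all genes). Without 2D-1 edgeR called 26, without 2D-2 14 and without 0D-1 1. Their Hist1h4d level was 208, 255, 127 and 136 CPM (-0.84 ± 0.11, SE) and their Hist1h2ab level 61.7, 79.9, 30.5 and 27.5 CPM (-1.31 ± 0.13). S-gated stem cells alone summed to 2261, 2648, 2024 and 1633 CPM of members. In enterocyte-gated cells 46 of 54 were below 0 and Hist1h2ab was called (0.00842% of all genes were called lower), with 19.6, 20.5, 8.40 and 8.77 CPM (-1.23 ± 0.12, adjusted p = 0.0470). In this class 24 members were lower at an unadjusted p under 0.05 (6.35% of all genes), and both 2D libraries lay below for 38 (22.3% of all genes). Paneth markers had 1531, 1857, 3464 and 5460 CPM in the class, and their part was not tested. Non-dividing enterocyte-gated cells alone gave -0.66 for Hist1h2ab (adjusted p = 0.502). Without 0D-1 or 0D-2 its adjusted p in all enterocyte-gated cells was 0.269 and 0.108, while 10 members were called without 2D-1 and 16 without 2D-2.

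Goblet-gated cells had 44 of 49 members below 0, 0 called (0% of all genes), 22 lower at an unadjusted p under 0.05 (4.61% of all genes) and 2 called by DESeq2, and both 2D libraries lay below for 31 (17.2% of all genes). Paneth-gated cells had 32 of 40 below 0, 0 called (0% of all genes), 11 at an unadjusted p under 0.05 (2.71% of all genes) and 1 called by DESeq2, and both 2D libraries lay below for 12 (6.03% of all genes). In goblet-gated cells edgeR called 13 and 23 when 2D-1 or 2D-2 was left out and 2 and 3 when 0D-1 or 0D-2 was, and in Paneth-gated cells 4 without either 2D library. Hist1h2ap had 45.0, 40.8, 17.3 and 15.8 CPM in goblet-gated cells (-1.48 ± 0.14, SE, adjusted p = 0.168). Hist1h4h had 5.61, 5.45, 3.04 and 2.06 CPM in Paneth-gated cells (-1.30 ± 0.21). In goblet-gated cells the G2 and mitosis gate genes were lower too (median -0.70), and so was the depth, with median UMIs per cell of 10755, 12716.5, 8188.5 and 9647. Paneth markers in goblet-gated cells had 8563, 8301, 10265 and 11006 CPM. Paneth-gated cells were shallower in 2D as well, at 33539, 26416.5, 18395 and 14913.5 UMIs per cell. The part of these in the member values was not tested.

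Enteroendocrine-gated cells had 29 of 35 members below 0 and 2 called lower (0.0777% of all genes), with 16 lower at an unadjusted p under 0.05 (4.49% of all genes) and both 2D libraries below for 17 (19.1% of all genes). Hist1h4d had 68.4, 72.6, 32.7 and 27.1 CPM (-1.23 ± 0.13, SE, adjusted p = 0.000402) and Hist1h1e 287, 292, 187 and 182 CPM (-0.66 ± 0.09, adjusted p = 0.00366). Both calls held in non-dividing enteroendocrine-gated cells alone, where Hist1h4d had 50.1, 65.6, 24.2 and 23.9 CPM. Without 0D-1 or 0D-2 neither was called (adjusted p = 0.0981 to 0.449), while 12 members were called without 2D-1 and 6 without 2D-2. Hist1h2bc stood at 261, 284, 278 and 302 CPM (0.08 ± 0.10), with overlapping groups. S-gated cells were 2.89%, 1.23%, 2.31% and 1.34% of the class. The G2 and mitosis gate genes had a median of -0.82 over the whole class, and Paneth markers, which these cells should lack, had 3475 and 4686 CPM in 0D and 11679 and 10636 CPM in 2D. The part of either in the member values was not tested.

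Tuft-gated cells had 28 of 32 members below 0 (median -0.96) and 7 called lower (0.173% of all genes), with 22 lower at an unadjusted p under 0.05 (5.51% of all genes) and both 2D libraries below for 24 (19.5% of all genes). Hist1h2ap had 162, 158, 56.7 and 43.3 CPM (-1.73 ± 0.18, SE, adjusted p = 0.00332) and Hist1h1b 178, 152, 55.8 and 65.2 CPM (-1.46 ± 0.18). Hist1h2ab had 25.4, 40.9, 6.62 and 5.19 CPM (-2.57 ± 0.37). The other 4 were Hist1h4d (-1.20), Hist1h1e (-0.97), Hist1h3e (-1.20) and Hist1h2ae (-0.98). In the same class the S-gated share of cells was 4.39%, 4.21%, 1.58% and 1.26% and the G2/M-gated share 7.80%, 5.36%, 3.95% and 3.54%. In its non-dividing cells alone 0 members were called, with a median of -0.34 over 19 tested. Of the 7 genes called in the whole class, Hist1h1e (-0.83) and Hist1h3e (-0.79) had the largest differences there, Hist1h4d had -0.54, Hist1h2ap -0.51, Hist1h1b -0.34 and Hist1h2ae -0.34, and Hist1h2ab was too low to be tested. Paneth markers had 3040, 6684, 15796 and 14593 CPM in the class and median UMIs per cell were 3066, 3986, 2524 and 2645. The part of either was not tested. Without 2D-2 0 members were called, with 2D-1 left out 3, and 7 and 6 with 0D-1 or 0D-2 left out.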

How the data were processed

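Single cells of mouse small-intestinal crypts were measured in 4 libraries, 2 labelled 0D and 2 labelled 2D. The deposited values are raw UMI counts per gene and cell barcode, which the authors made with Cell Ranger 2.1.1 on mm10 per the submitters' processing notes, while the file headers name version 7.0.0. Annotation and intron handling were not given in the sources used here.

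A barcode was kept with 500 or more genes and no more than 20% of its UMIs mitochondrial, which left 29731 cells. Scrublet's automatic call failed in 2D-2 (0 cells), so all cells were kept and the top 8% of scores were left out as an alternative. Per cell, marker lists were scored and standardised: a class needed a score of at least 1 with a lead of 0.5, and a dividing cell 0.5, while non-dividing cells were below 0 for both division lists. Counts were summed per library and population and tested with edgeR 4.0.16 (filterByExpr, TMM, quasi-likelihood, Benjamini-Hochberg over all genes, adjusted p of 0.05), with library as a block within libraries. DESeq2 1.42.0 was an alternative, beside another scaling, no filter, thinning, stricter gates and leaving out each library. The fits were tested on simulated data. Named members were the 3 of each type with the most UMIs, up to 10 called per comparison and direction by smallest p, and the extremes of the S-gated contrast, with up to 4 called genes of each other list. Others were named after their values were seen. The members and lists were chosen with earlier results of these data known.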

Additional observations from a re-analysis of the deposited data

How the results depend on the processing

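The direction of the difference between 2D and 0D was steadier than its calls. The median member stayed below 0 in each population under each alternative run, between -0.97 and -0.59 over all cells, -0.62 and -0.31 in the S gate, -0.75 and -0.56 in the G2/M gate and -0.56 and -0.37 in non-dividing cells. Calls moved with the tool, the filter and the library left out, and the cause was not tested. The share of all genes called in each run is not given, so the counts in this section do not set the members apart from other genes. Over 136 alternative runs of 2D against 0D, members were called lower 744 times and higher 4 times, the latter in 3 runs. DESeq2 called 36 members over all cells, 7 in S-gated, 25 in G2/M-gated, 5 in non-dividing, 9 in stem-gated, 8 in enterocyte-gated, 2 in goblet-gated and 1 in Paneth-gated cells. Without a filter on low counts edgeR called 22 in S-gated, 31 in G2/M-gated, 25 in stem-gated, 0 in enterocyte-gated, 10 in goblet-gated, 7 in Paneth-gated, 11 in enteroendocrine-gated and 13 in tuft-gated cells and 1 in the test of the difference between gates. In thinned cells it called 10 over all cells and 8, 9, 8, 2, 1 and 1 in S-gated, G2/M-gated, stem-gated, enterocyte-gated, Paneth-gated and tuft-gated cells. Stricter gates gave 1, 0 and 3 in S-gated, G2/M-gated and tuft-gated cells, S-gated stem cells alone 1, and non-dividing cells alone 0 in enterocyte-gated and tuft-gated cells. Leaving out the top doublet scores gave 0 in G2/M-gated, 1 in stem-gated and 0 in enterocyte-gated cells, and at most 10% mitochondrial UMIs gave 3 in enterocyte-gated and 1 in goblet-gated cells.

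Replicate numbers are shared by the groups, but same-numbered libraries did not deviate together in every population (r of 0.17, 0.07, -0.05 and 0.12 over all, S-gated, G2/M-gated and non-dividing cells, 2 pairs). With the replicate number as a block, edgeR called 0 over all cells and 4, 11, 4, 4, 3, 8, 7, 9 and 11 in S-gated, G2/M-gated, non-dividing, stem-gated, enterocyte-gated, goblet-gated, Paneth-gated, enteroendocrine-gated and tuft-gated cells.

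Leaving out 1 library gave 0 to 50 calls over all cells, 0 to 14 in S-gated, 0 to 37 in G2/M-gated, 0 to 20 in non-dividing, 0 to 26 in stem-gated, 0 to 16 in enterocyte-gated, 2 to 23 in goblet-gated, 0 to 4 in Paneth-gated, 0 to 12 in enteroendocrine-gated and 0 to 7 in tuft-gated cells, and 0 to 3 in the test of the difference between gates. A lone library is then assumed to vary like the other group.

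S-gated against non-dividing cells gave 47 to 61 calls and G2/M-gated against S-gated cells 30 to 40. In thinned cells Hist1h3a and Hist1h2an changed sign from S to G2/M (0.10 and 0.30). Between non-dividing classes, thinned cells gave 0, 11, 4, 7, 5 and 9 calls for stem, enterocyte, goblet, Paneth, enteroendocrine and tuft. At most 10% mitochondrial UMIs gave 1 for stem and 8 for tuft, and leaving out the top doublet scores 3 for stem. Without composition scaling 37 were called for Paneth, where Hist1h3e changed sign (-0.87), and 27 for enteroendocrine. Leaving out 1 library gave 1 to 3 calls for stem and 9 to 17 for goblet. Few counts per cell limit what can be said of the members with the lowest levels.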
